A study of Mus musculus with 14 samples.

Results

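The 9 genes described here encode the transcription factors that are best known for setting and keeping hepatocyte identity: Hnf4a, Foxa1, Foxa2, Foxa3, Cebpa, Cebpb, Nr5a2, Prox1 and Onecut1. They were taken by gene symbol from a table of estimated counts for 57180 genes in whole mouse liver, and all 9 were present once and passed the filter on low counts, which kept 16201 genes. The 14 livers came from numbered mice on normal chow that the labels call Pkd1 Homo (4 livers), Het (4 livers) and WT (6 livers) littermates. Pkd1 encodes polycystin 1, a large membrane protein of the primary cilium. All 14 genotype labels include Cre, so the WT livers carry that label as well, and the 3 groups share the diet. The labels state neither the Pkd1 allele nor the promoter that drives Cre, so the liver cells in which Pkd1 was altered cannot be named, and they give no age, sex, litter or batch.

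A hepatocyte is kept as a hepatocyte by a small network of transcription factors that bind each other's regulatory regions as well as the genes of plasma protein, lipid, bile acid and drug metabolism. Hnf4a, an orphan nuclear receptor, and Cebpa, a bZIP factor, act on many of the genes of the adult cell. The FOXA factors open chromatin ahead of other factors, Onecut1 (also called HNF6) and Prox1 act in early liver and bile duct development and stay on in the adult hepatocyte, Nr5a2 (LRH-1) acts in bile acid and cholesterol genes, and Cebpb responds to feeding state, hormones and inflammation. The comparison of genotypes asks whether the levels of these factors differ in Pkd1 Homo or Het liver.

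Total counts ran from 18573686 to 28431839 in Homo, 22833800 to 26245428 in Het and 25238117 to 40925909 in WT livers. Pkd1 itself averaged 25.3 ± 1.51 CPM (counts scaled to the library size) in Homo, 32.2 ± 3.52 CPM in Het and 34.8 ± 2.77 CPM in WT livers (SD, n = 4, 4 and 6). Its Homo and WT values did not overlap (0.728-fold, edgeR quasi-likelihood test, adjusted p = 0.0246). The Het and WT values of Pkd1 overlapped and did not pass the same test (0.927-fold, adjusted p = 0.998). All livers carried hepatocyte RNA at high levels, the 9 measured hepatocyte markers summing to between 73760 and 99640 CPM. The fitted fold change of Homo over WT was above 1 for 50.6% of all genes. Of measured markers it was above 1 for 5 of 9 hepatocyte, 6 of 10 stellate cell and 4 of 7 bile duct genes. The same held for 1 of 4 erythroid and 0 of 2 neutrophil markers. It was above 1 for 10 of 11 Kupffer cell, 9 of 10 endothelial and 6 of 6 measured lymphocyte markers, and none of them passed the adjusted test. Their summed levels were 305 to 328, 430 to 507 and 38.4 to 43.7 CPM in Homo livers, 262 to 322, 420 to 499 and 33.0 to 37.9 CPM in Het livers, and 261 to 310, 385 to 457 and 22.3 to 34.2 CPM in WT livers, so that only the lymphocyte sums of these 3 lists did not overlap between Homo and WT. Bile duct markers (7 of 10 measured) summed to 41.3 to 88.3 CPM in Homo, 42.8 to 58.7 CPM in Het and 41.4 to 59.3 CPM in WT livers. The pancreas list summed to at most 0.642 CPM in Homo, 0.91 CPM in Het and 0.626 CPM in WT livers, with Prss2 at 0 in all. The 9 factors were set against total counts, the mitochondrial share of counts and the marker sums of bile duct, stellate cell, Kupffer cell, endothelium and lymphocyte, and none of the 63 relations passed adjustment (smallest adjusted permutation p = 0.249). With the mitochondrial share r lay between -0.62 (Onecut1) and 0.39 (Prox1), with Foxa1 at -0.60. The lowest r were -0.59 with the endothelial, -0.59 with the stellate cell, -0.57 with the Kupffer cell and -0.62 with the bile duct sum. The highest r with the same sums were 0.23, 0.03, 0.16 and 0.09. With total counts r lay between -0.29 and 0.39. With the lymphocyte sum r lay between -0.23 and 0.35 (smallest adjusted permutation p = 0.569). A part of tissue mix in the levels of the factors was not tested.

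None of the 9 factors passed the test of a difference between genotypes. With edgeR's quasi-likelihood test fitted on all 14 livers, 0 of 9 passed an adjusted p of 0.05 in Homo against WT livers, where 0.222% of all tested genes passed. It was likewise 0 of 9 in Het against WT (background 0.0556%), 0 of 9 in Homo against Het (0.0309%) and 0 of 9 for a trend over WT, Het and Homo (0.185%). At an unadjusted p under 0.05, 0 of 9 passed in Homo against WT (background 4.73%), 1 of 9 in Het against WT (4.67%), 0 of 9 in Homo against Het (5.1%) and 0 of 9 for the trend (4.72%). The 1 gene was Prox1. DESeq2 also called 0 of 9 in each of these comparisons (background 0.377%, 0.198%, 0.0927% and 0.334%). Its unadjusted counts were 0, 1, 0 and 0 of 9 (background 4.63%, 4.73%, 5.18% and 4.71%). The values of the groups overlapped for every factor in every pair of genotypes, whereas 1.15% of all genes had no overlap between Homo and WT, 1.2% between Het and WT and 2.94% between Homo and Het. In bulk tissue a change in the number of hepatocytes and a change in RNA per hepatocyte cannot be told apart. Each library carries its own number as a littermate in the labels and was taken as 1 mouse. Each p sets a difference between groups against the spread between these mice.

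In Homo against WT livers 1 of 9 was above 0 and 8 below, with a median of -0.08 beside 0.002 over all genes. Of all genes, 50.6% were above 0 there. Several factors varied together over the livers (below), so the 9 signs are not independent. In Het against WT livers 5 were above 0 and 4 below, with a median of 0.02. Both comparisons share the WT livers. In Homo against Het livers 3 were above 0 and 6 below (50.5% of all genes above 0), with a median of -0.09. There the median size without sign was 0.267 beside 0.12 over all genes, and the log2 fold changes were -0.56 for Cebpb, -0.40 for Foxa1, -0.33 for Onecut1, -0.32 for Foxa2 and 0.27 for Prox1. Of the 9, Onecut1, Cebpb, Foxa2 and Foxa1 also had the largest SD between livers of 1 genotype (below). In Homo against WT the median size was 0.077 beside 0.104, and in Het against WT 0.098 beside 0.104. The 95% intervals differed in width by factor. In Homo over WT the narrowest, for Hnf4a, ran from 0.834-fold to 1.11-fold, and the widest, for Onecut1, from 0.395-fold to 2.49-fold. The lower bound was 0.476-fold for Cebpb and at least 0.522-fold for the other 7 factors.

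**Figure D1:**
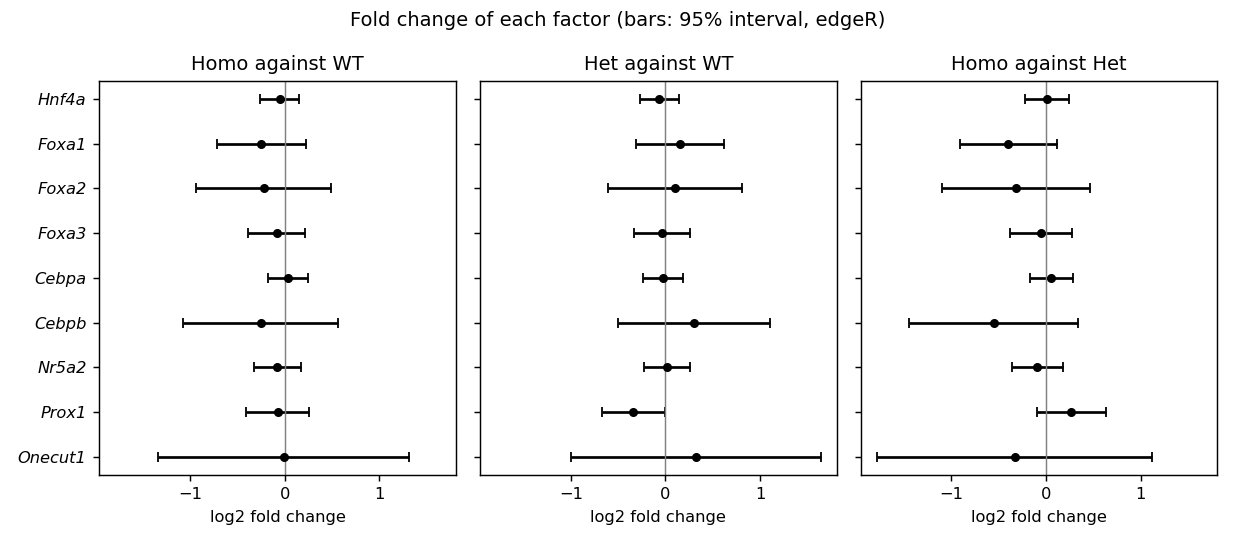
Fitted log2 fold change of each of the 9 factors (points) with its 95% interval (bars) from edgeR, for Homo over WT, Het over WT and Homo over Het livers. The intervals of Hnf4a, Cebpa and Nr5a2 are narrow, those of Onecut1 and Cebpb are wide, and Prox1 in Het over WT, at -0.34, is the one interval that does not reach 0.

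**Figure D2:**
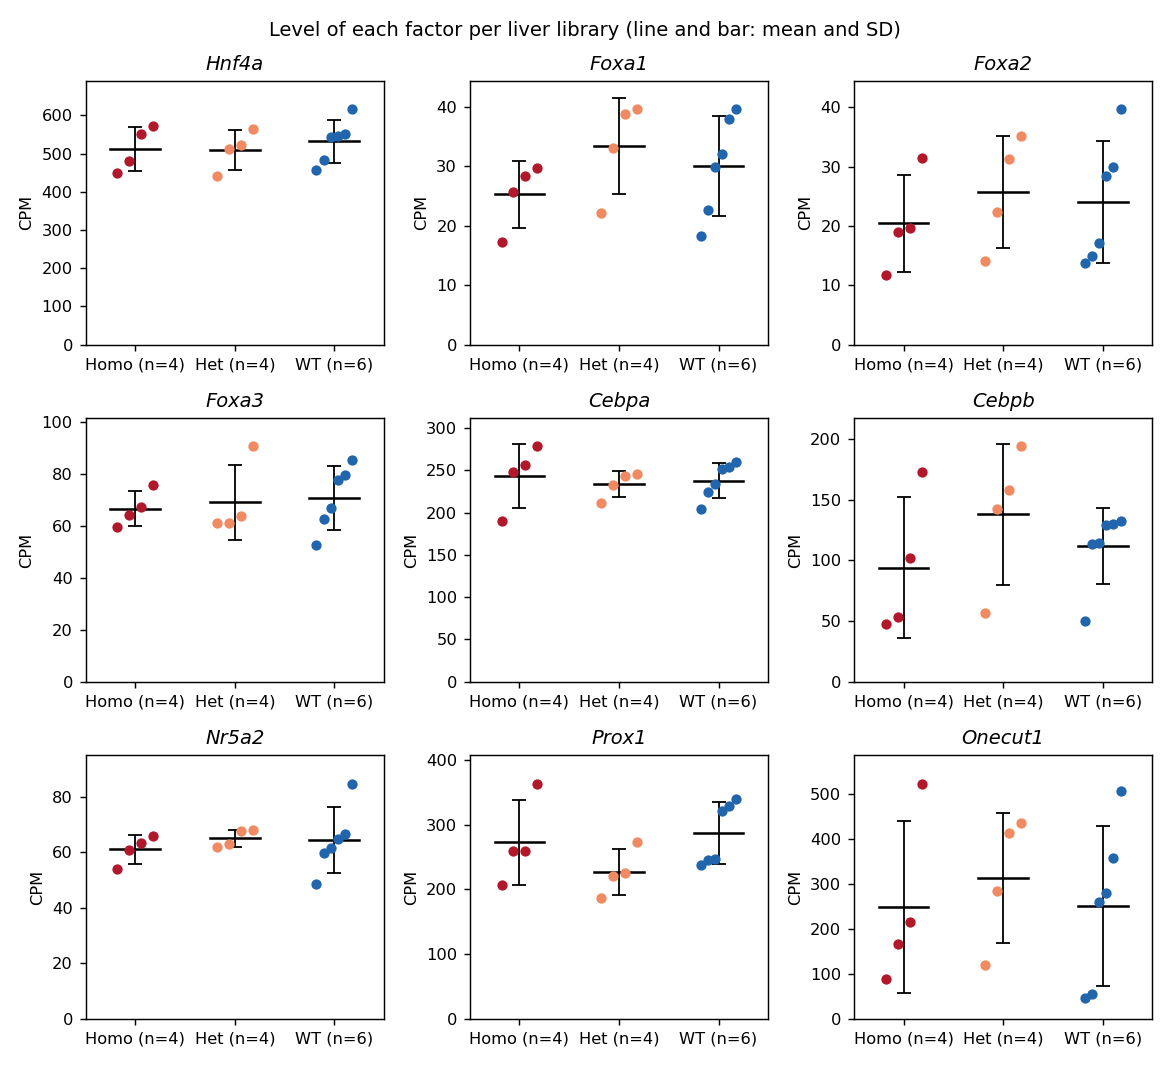
Level of each factor in CPM (y axis, from 0) in every liver of the Homo, Het and WT groups, with horizontal lines for the mean and bars for the SD. The groups overlap in all 9 panels, and Onecut1 runs from 45.5 to 524 CPM.

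Per length of exon, Hnf4a was the most abundant of the 9 factors, at 107.8 ± 10.8 CPM per kilobase (SD over 14 livers). Cebpa followed at 90.3 ± 9.06, Cebpb at 75.9 ± 31.5 and Onecut1 at 65.3 ± 39.5 CPM per kilobase. Foxa3 at 33.9 ± 5.37 and Prox1 at 31.6 ± 6.37 CPM per kilobase came next, and Nr5a2 at 10.8 ± 1.37, Foxa2 at 9.90 ± 3.80 and Foxa1 at 8.90 ± 2.31 CPM per kilobase were lowest. Most neighbours in this order were not separated. Hnf4a exceeded Cebpa in 11 of 14 livers, Cebpb exceeded Onecut1 in 7, and Foxa2 exceeded Foxa1 in 8, and Prox1 over Nr5a2 was the one neighbouring pair whose ranges did not overlap (14 of 14). With the longest transcript in place of all exons the order was the same.

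Hnf4a (ENSMUSG00000017950, chromosome 2) was among the steadiest of the 9. It had 449, 481, 550 and 572 CPM in Homo livers and 441, 565, 511 and 523 CPM in Het livers, and in WT livers it ran from 457 to 616 CPM with a median of 544. The 3 groups covered nearly the same range. Homo against WT was 0.963-fold (log2 -0.05, SE 0.098) and Het against WT 0.957-fold, both with an adjusted p of 0.998 from edgeR. Its SD between livers of 1 genotype was 0.155 on the log2 scale, at the 28.8 percentile of all tested genes, where the median gene had 0.242.

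Cebpa (ENSMUSG00000034957, chromosome 7), which in mouse is needed for postnatal glucose and lipid handling by the liver, was as even. Its levels were 256, 247, 278 and 190 CPM in Homo livers and 243, 233, 212 and 246 CPM in Het livers, with 204 to 259 CPM and a median of 243 in WT livers. The lowest and the highest of all 14 values were both from Homo livers. The fold changes over WT were 1.02 in Homo and 0.982 in Het livers. Cebpa counts were not whole in any library and its locus overlaps the predicted gene Gm45091 on the opposite strand in GENCODE, so the division of reads there is uncertain.

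Nr5a2 (ENSMUSG00000026398, chromosome 1), which switches on bile acid synthesis genes, had 54.0, 61.0, 66.1 and 63.2 CPM in Homo livers and 67.6, 67.9, 63.0 and 62.1 CPM in Het livers. In WT livers it ran from 48.6 to 84.8 CPM around a median of 63.2. The Homo and Het values all lay inside the WT range, and the fold changes over WT were 0.948 in Homo and 1.01 in Het livers.

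Foxa3 (ENSMUSG00000040891, chromosome 7), the family member that is most abundant in adult liver, had 75.8, 64.0, 67.3 and 59.5 CPM in Homo livers and 60.9, 90.6, 61.1 and 63.8 CPM in Het livers. WT livers ran from 52.5 to 85.3 CPM with a median of 72.4. One Het liver stood above the other 3, and the groups overlapped. The fold changes over WT were 0.942 in Homo and 0.976 in Het livers.

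Foxa1 and Foxa2, which in mouse embryos are jointly required for the liver to form, varied more. Foxa1 (ENSMUSG00000035451, chromosome 12) had 28.3, 25.7, 29.7 and 17.3 CPM in Homo livers, 38.7, 33.0, 22.2 and 39.6 CPM in Het livers, and 18.3 to 39.5 CPM in WT livers with a median of 31.0. Of the 4 Het livers, 3 lay above all Homo livers, and the fourth lay among them. The Homo over Het ratio was 0.758-fold with a 95% interval of 0.531 to 1.08 (edgeR quasi-likelihood test across all genes, adjusted p = 0.972), and Homo against WT was 0.842-fold with an interval of 0.607 to 1.17. Foxa1 counts were also not whole in any library.

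Foxa2 (ENSMUSG00000037025, chromosome 2) had 31.4, 18.96, 19.7 and 11.7 CPM in Homo livers and 22.4, 31.2, 14.1 and 35.2 CPM in Het livers. In WT livers it ran from 13.8 to 39.7 CPM around a median of 22.8. Each genotype held livers near the bottom and livers near the top of the range. In Homo over WT it was 0.857-fold with a 95% interval of 0.522 to 1.41, and Het against WT 1.07-fold with 0.655 to 1.75.

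Prox1 (ENSMUSG00000010175, chromosome 1), a homeodomain factor that represses Nr5a2 and Hnf4a activity, had the smallest p of the 9. It had 206, 260, 364 and 260 CPM in Homo livers and 225, 221, 273 and 187 CPM in Het livers, and WT livers ran from 238 to 340 CPM with a median of 284. Of the 4 Het livers, 3 lay below all WT livers and the fourth lay inside the WT range. Het against WT was 0.790-fold (log2 -0.34, SE 0.157, edgeR p = 0.0476, adjusted p = 0.998), and an exact two-sided permutation test of the same livers gave p = 0.0714. Homo against WT was 0.951-fold with an interval of 0.755 to 1.20. Prox1 marks lymphatic vessels as well. Of the 4 measured lymphatic markers, 3 were above WT in Homo and 2 in Het livers. They summed to 151 to 185 CPM in Homo, 125 to 171 CPM in Het and 128 to 173 CPM in WT livers. Reln, in this list, is also in the stellate cell list, so the sum is not of lymphatic vessels alone. The part of these markers in the Prox1 levels was not tested. The antisense gene Prox1os overlaps it, and reads of the pair cannot be told apart if strand was not used.

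Cebpb (ENSMUSG00000056501, chromosome 2) fell into separate sets of livers. It had 47.4, 53.3, 102 and 173 CPM in Homo livers, 56.3, 158, 194 and 143 CPM in Het livers, and 50.2 to 133 CPM in WT livers with a median of 122. Of the 14 livers, 4 lay between 47.4 and 56.3 CPM and 10 between 102 and 194 CPM. The 4 low livers were 2 Homo, 1 Het and 1 WT. In Homo over WT it was 0.839-fold with a 95% interval of 0.476 to 1.48, and Het against WT 1.23-fold with 0.705 to 2.16. Tmem189 overlaps Cebpb on the opposite strand.

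Onecut1 (ENSMUSG00000043013, chromosome 9) varied most of the 9. It had 524, 216, 167 and 89.2 CPM in Homo livers and 285, 435, 120 and 414 CPM in Het livers. In WT livers it ran from 45.5 to 508 CPM around a median of 271. Low and high livers occurred in each genotype, and the highest value was 5.88 times the lowest among Homo, 3.63 times among Het and 11.2 times among WT livers. Group means were 249 ± 191 CPM in Homo, 314 ± 145 CPM in Het and 251 ± 178 CPM in WT livers (SD, n = 4, 4 and 6). Homo against WT was 0.992-fold in the edgeR fit (log2 -0.01, SE 0.623), and Het against WT was 1.25-fold with an interval of 0.50 to 3.12. The difference of mean log2 CPM was 0.18 in Homo against WT, opposite in sign to the fit, and 0.645 in Het against WT. An exact two-sided permutation test of the 0.18 gave p = 0.848. Gm20649 overlaps Onecut1 on the same strand, and 5 libraries had counts that were not whole.

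The factors differed in how much they varied between mice of 1 genotype. On the log2 scale the SD within genotypes was 1.22 for Onecut1, which put it at the 97.8 percentile of all 16201 genes, 0.714 for Cebpb (90.7) and 0.601 for Foxa2 (85.5). Foxa1 had 0.40 (70.5), Prox1 0.267 (54.0) and Foxa3 0.24 (49.7). Nr5a2 at 0.191 (39.0), Cebpa at 0.162 (30.9) and Hnf4a at 0.155 (28.8) lay below the median gene.

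**Figure D3:**
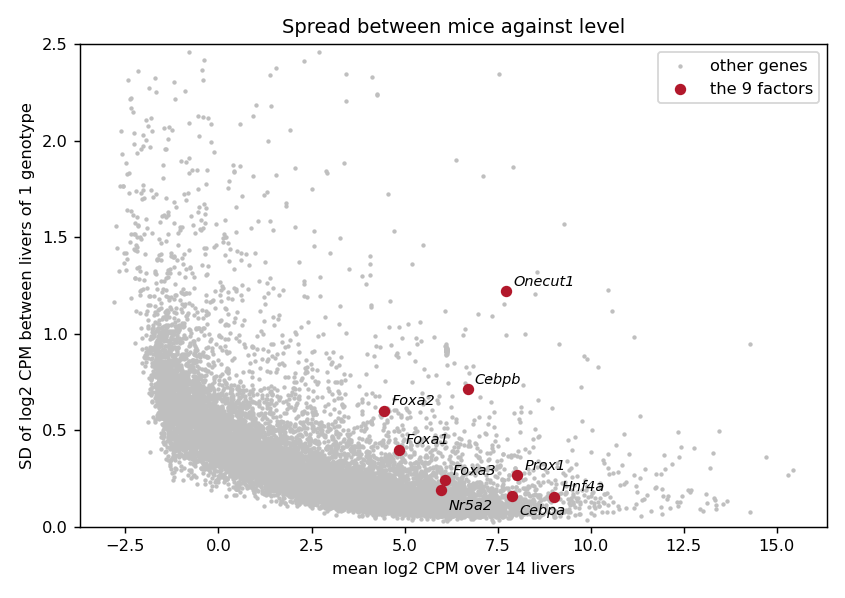
SD of log2 CPM between livers of 1 genotype (y axis) against mean log2 CPM over 14 livers (x axis) for all tested genes (grey; 55 genes lie above the top of the axis) and the 9 factors (red). Onecut1, at 1.22, lies above most genes of like level, and Hnf4a and Cebpa lie among them.

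The variable factors did not vary independently. Foxa2 followed Onecut1 across the 14 livers (Pearson r = 0.873, Spearman rho = 0.908, permutation p adjusted over the 36 pairs of factors 0.00144 for each). Foxa1 followed Foxa2 (r = 0.820, rho = 0.776, adjusted permutation p = 0.00846 and 0.0204). Prox1 ran against Onecut1 (r = -0.731, rho = -0.851, adjusted permutation p = 0.0221 and 0.00414). Among Homo and among WT livers, the liver with the most Onecut1 had the most Foxa2 and the least Prox1. Among Het livers the most Foxa2 and the least Prox1 were both found in the liver with 414 CPM of Onecut1, next to the highest.

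For a further 3 pairs only Pearson's r passed adjustment. One was Hnf4a with Cebpb, for which no pooled value is given because Cebpb fell into separate sets. The others were Foxa1 with Onecut1 (r = 0.786, rho = 0.679, adjusted permutation p = 0.0133 and 0.0678) and Foxa3 with Onecut1 (r = 0.696, rho = 0.635, adjusted permutation p = 0.0356 and 0.0875). With each value taken from its genotype mean, r was 0.893 for Foxa2 with Onecut1, 0.815 for Foxa1 with Foxa2, -0.728 for Prox1 with Onecut1, 0.819 for Foxa1 with Onecut1 and 0.738 for Foxa3 with Onecut1. Among the 6 WT livers alone the same pairs had r of 0.86, 0.807, -0.846, 0.861 and 0.805. Without the 2 livers farthest from the median of the first-named factor, r was 0.854, 0.710, -0.803, 0.665 and 0.73, and Foxa1 with Foxa2 (adjusted permutation p = 0.105), Foxa1 with Onecut1 (0.107) and Foxa3 with Onecut1 (0.0845) no longer passed. Without the 2 livers farthest from the median of the second-named factor, r was 0.923, 0.817, -0.59, 0.727 and 0.583, and Prox1 with Onecut1 (adjusted permutation p = 0.244), Foxa1 with Onecut1 (0.0685) and Foxa3 with Onecut1 (0.244) no longer passed. The 2 livers farthest from the Onecut1 median were WT livers with its lowest levels, 45.5 and 54.8 CPM. Without them Prox1 with Onecut1 stayed negative but did not pass. Only Foxa2 with Onecut1 passed both ways. Of the 28 pairs that leave out Cebpb, the other 23 had r between -0.56 and 0.56. Hnf4a, Cebpa and Nr5a2 passed with none of the other factors in that set. No batch is given in the labels, so no value within a batch can be had.

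**Figure D4:**
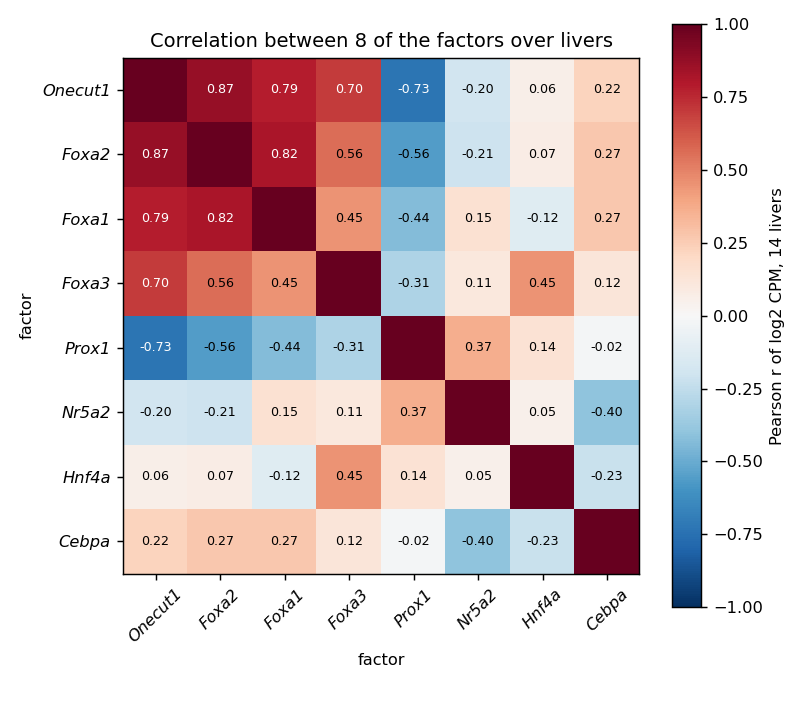
Pearson r of log2 CPM over 14 livers between 8 of the factors, with Cebpb left out because its values fall into separate sets. Onecut1, Foxa2, Foxa1 and Foxa3 form a block of positive values (0.45 to 0.87), and Prox1 is negative with each of them (-0.31 to -0.73).

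The promoter sequences of the 4 factors that turned together or opposite are shown for reading beside these values: the 250 bases before the RefSeq start site, in build GRCm38.p6, on the strand of the gene. All 9 factors matched the RefSeq table by symbol, with 14 start sites. Onecut1 and Foxa1 have 1 start site in it, and of the 3 of Foxa2 and the 2 of Prox1 the first is shown. Capitals mark matches, on either strand, to the motif letters searched. Onecut1 lies at chr9:74861671-74861920 on the plus strand, Foxa2 at chr2:148046970-148047219, Foxa1 at chr12:57546112-57546361 and Prox1 at chr1:190170828-190171077, all 3 on the minus strand.
Onecut1: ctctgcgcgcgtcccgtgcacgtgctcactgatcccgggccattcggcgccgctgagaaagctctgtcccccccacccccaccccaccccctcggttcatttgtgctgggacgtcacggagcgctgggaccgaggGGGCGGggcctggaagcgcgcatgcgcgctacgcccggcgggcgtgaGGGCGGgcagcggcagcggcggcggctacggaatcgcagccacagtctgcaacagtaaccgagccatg
Foxa2: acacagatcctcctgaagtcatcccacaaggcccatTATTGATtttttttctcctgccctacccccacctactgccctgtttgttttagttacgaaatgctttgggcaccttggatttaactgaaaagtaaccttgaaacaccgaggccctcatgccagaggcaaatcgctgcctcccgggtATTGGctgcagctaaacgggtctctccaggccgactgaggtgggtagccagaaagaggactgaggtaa
Foxa1: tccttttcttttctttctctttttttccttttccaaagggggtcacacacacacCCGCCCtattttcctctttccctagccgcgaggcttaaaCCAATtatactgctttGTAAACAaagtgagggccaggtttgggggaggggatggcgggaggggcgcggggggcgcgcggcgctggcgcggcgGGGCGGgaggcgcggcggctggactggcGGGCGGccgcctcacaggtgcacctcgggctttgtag
Prox1: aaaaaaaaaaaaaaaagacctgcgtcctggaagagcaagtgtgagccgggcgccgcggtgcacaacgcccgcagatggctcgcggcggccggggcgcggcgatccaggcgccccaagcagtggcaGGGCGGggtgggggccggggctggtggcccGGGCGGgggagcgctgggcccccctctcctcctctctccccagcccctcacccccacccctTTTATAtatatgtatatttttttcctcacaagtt

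The Onecut1 window held 71.6% G and C and has GC boxes (GGGCGG) at positions -115 and -68 from the start site. The window of the first Foxa2 start, with 50.8% G and C, has the ONECUT letters ATCAATA at -214 and a CCAAT box at -68. The windows of the other 2 Foxa2 starts, with 67.2% and 54.4% G and C, have GC boxes and lack these ONECUT letters. They occurred in 1.86% of the 32851 windows of all genes and in 2 of the 14 windows of the 9 factors, the other being that of the first of the 2 Hnf4a starts. The Foxa1 window has the FOXA letters TGTTTAC at -141, which 3.17% of all windows held and no other window of the 9 factors did. It also has GC boxes at -196, -65 and -37 and a CCAAT box at -157. The window of the first Prox1 start has GC boxes at -125 and -95. It has the TATA box letters (TATAAA) at -34 on the strand opposite to the gene, and 12.4% of all windows held them on either strand. The bases after this Prox1 start were not found in a GENCODE transcript of the gene, unlike those of the other windows shown.

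Across the 14 windows of the 9 factors, a GC box was present in 9 (32.7% of all windows), a CCAAT box in 6 (33.8%) and a TATA box in 5 (12.4%). The C/EBP letters TTGCNNAA occurred in 1 window, at the second start of Nr5a2 (9.56% of all windows). The HNF4 letters CAAAGTCCA (0.384%), the NR5A letters CAAGGNCA (5.53%), the CREB letters TGACGTCA (1.55%), the STAT letters TTCNNNGAA (7.02%) and the HNF1 palindrome (0.00913%) were in none. A match is a description of letters and not of a bound site.

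Each factor was also set against 11536 other genes with a mean of at least 1 CPM, to name those nearest in pattern over the 14 livers. Gene models with Gm or Rik names, IDs without a symbol and pseudogenes were left out of this ranking. Onecut1 was nearest to Abhd17b (r = 0.96), a depalmitoylating enzyme that ran from 13.2 to 43.4 CPM, and to Slc25a30 (r = 0.91), a mitochondrial carrier that ran from 6.08 to 44.4 CPM. It was most opposite to AI837181 (r = -0.89). Foxa2 was nearest to Wdr37 (0.93) and Nudt7 (0.91), a peroxisomal CoA diphosphatase, and most opposite to Arhgef3 (-0.91). Foxa1 was nearest to Hhex (0.90), a homeobox factor of early liver that ran from 30.9 to 206 CPM, and to Cntrl (0.89), and most opposite to Frmd4b (-0.93). Foxa3 was nearest to Uspl1 (0.89) and Atg16l1 (0.88), an autophagy gene, and most opposite to Izumo4 (-0.88). Prox1 was nearest to Rnf126 (0.86) and Gse1 (0.81) and most opposite to Prdm2 (-0.86). These r are descriptions, chosen as the extremes of many, and carry no test.

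Hnf4a was nearest to Zfp143 (0.89) and Atf6b (0.88) and most opposite to Lrig3 (-0.84). Cebpa was nearest to Ppp2r1b (0.84) and Lppos (0.79) and most opposite to Vps13d (-0.87). Nr5a2 was nearest to Foxo4 (0.90) and Rapgef2 (0.85) and most opposite to Rusf1 (-0.85). Among the 115 other genes of the pathway lists, Onecut2, the close relative of Onecut1, was the nearest gene to Onecut1 (0.79), to Foxa2 (0.85) and to Foxa3 (0.80). Onecut2 had 232, 206, 220 and 172 CPM in Homo livers and 197, 275, 189 and 245 CPM in Het livers, with 170 to 281 CPM in WT livers. Nr1i3 (CAR), the xenobiotic receptor, was the listed gene most opposite to Onecut1 (-0.75), and Ahsg, a plasma protein gene, was the most opposite to Foxa1 (-0.82) and Foxa2 (-0.81).

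Since Cebpb fell into separate sets, its relations were read among the 10 livers above 100 CPM. There Cebpd, a related bZIP factor, followed Cebpb (r = 0.92), as did Pim3 (0.81), a kinase, and Tat (0.88), the glucocorticoid-responsive tyrosine aminotransferase. Bhlhe41, a clock repressor, ran against it (-0.75). Cebpd, Pim3 and Bhlhe41 had been picked as the nearest and most opposite of 11536 genes over all 14 livers. The gap between the 4 low livers and the other 10 entered that choice. Tat was chosen after its values were seen. The values of these genes are therefore descriptions and no separate evidence of sets. The 4 livers with the lowest Cebpb also had the 4 lowest Cebpd levels, 1.72 to 2.71 CPM against 5.52 to 12.5 CPM in the others, and the lowest Tat, 320 to 536 CPM against 654 to 2475 CPM. Bhlhe41 stood at 5.34 to 9.28 CPM in those 4 livers and at 1.08 to 4.94 CPM in the others. They were also the 4 lowest in Hnf4a, at 441 to 481 CPM against 483 to 616 CPM. Within the 10 livers Hnf4a did not follow Cebpb (r = -0.09, rho = 0.03, permutation p adjusted over 8 relations 0.818). Cebpa had r = -0.66 and rho = -0.61 there, with an adjusted permutation p of 0.294 and 0.529, and r = -0.41 without the 2 farthest livers.

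**Figure D5:**
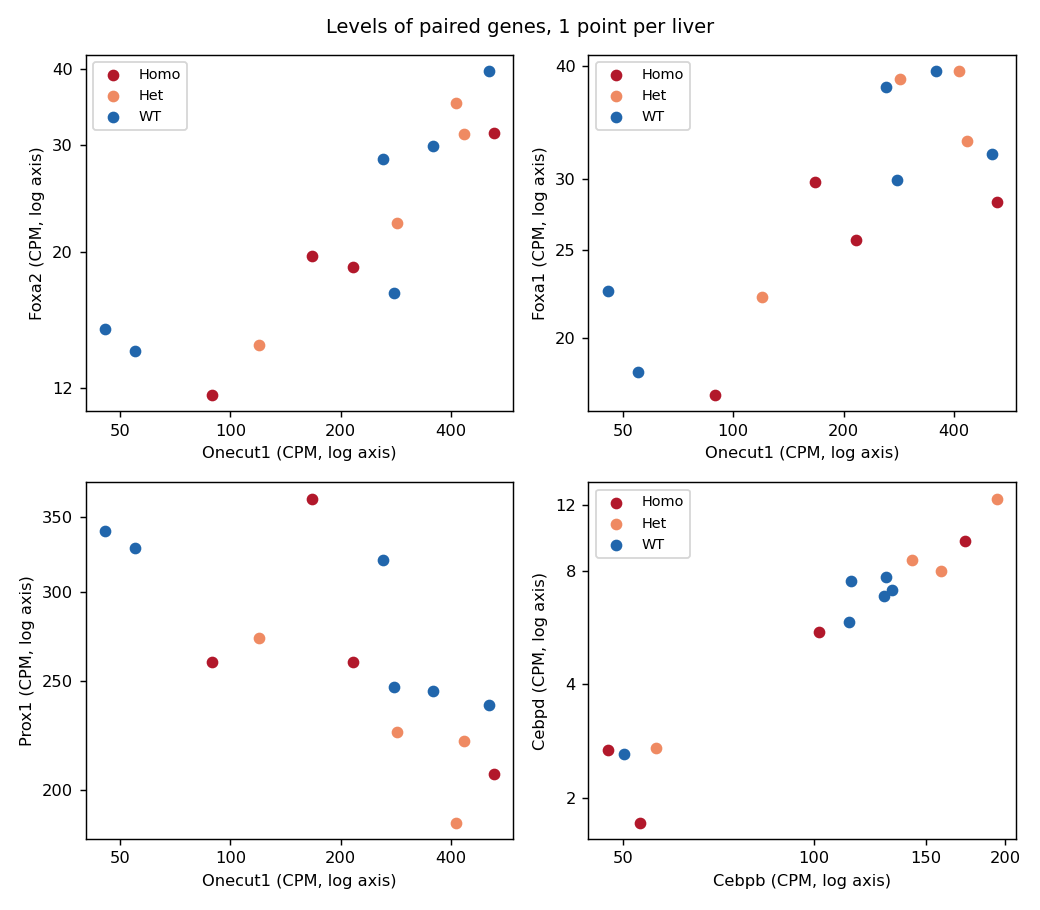
CPM of Foxa2, Foxa1 and Prox1 against Onecut1 and of Cebpd against Cebpb, on log axes, 1 point per liver with Homo, Het and WT in separate colours. Foxa2 and Foxa1 climb with Onecut1 and Prox1 falls, each genotype is spread along the slope, and 4 livers with Cebpb between 47.4 and 56.3 CPM lie apart from the other 10.

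The genes around the 9 factors were read in 5 lists. Of 30 other regulators of the hepatocyte network, 12 were above and 18 below 0 in Homo against WT, 14 and 16 in Het against WT, and 14 and 16 in Homo against Het, with 0 passing the adjusted edgeR test in any. Their median log2 fold changes were -0.01, -0.03 and -0.005. Unadjusted p was under 0.05 for 1, 1 and 6 of the 30, beside 4.73%, 4.67% and 5.1% of all genes. The 6 in Homo against Het were Tbx3, Zfhx3, Nr0b2, Hhex, Cux2 and Zbtb20, with log2 fold changes of 0.66, -0.21, 1.03, -1.15, 2.04 and 0.20, and all had an adjusted edgeR p of at least 0.916. Tbx3, a T-box repressor, averaged 44.4 ± 8.96 CPM in Homo, 28.01 ± 4.73 CPM in Het and 43.0 ± 7.69 CPM in WT livers, and was also the 1 gene of Het against WT (adjusted p = 0.566). The smallest p in Homo against WT belonged to Cux2, a Cut homeobox repressor, at 2.60 ± 4.06 CPM in Homo, 0.609 ± 0.169 CPM in Het and 0.63 ± 0.282 CPM in WT livers (SD, adjusted p = 0.976). One Homo liver at 8.67 CPM set that mean, and the other 3 lay between 0.378 and 0.736 CPM. Hhex averaged 70.9 ± 38.4 CPM in Homo, 157 ± 52.4 CPM in Het and 114 ± 61.5 CPM in WT livers. Nr0b2 (SHP), the repressor of bile acid synthesis, averaged 21.99 ± 10.4, 10.7 ± 3.19 and 15.9 ± 7.26 CPM in the same order.

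Of 11 other C/EBP and PAR bZIP genes, 4 were above and 7 below 0 in Homo against WT and in Het against WT, 6 were above and 5 below in Homo against Het, and 0 passed. Unadjusted p was under 0.05 for 0, 0 and 1 of them, beside 4.73%, 4.67% and 5.1% of all genes. Nfil3, a clock-linked repressor, averaged 7.49 ± 2.47 CPM in Homo, 11.4 ± 2.49 CPM in Het and 9.70 ± 3.67 CPM in WT livers. Ddit3 (CHOP), a stress-induced member, averaged 2.94 ± 0.268, 3.49 ± 0.851 and 3.51 ± 0.875 CPM, and Atf5 averaged 103 ± 34.4, 84.0 ± 11.5 and 84.9 ± 28.8 CPM. Of 20 measured partners and modifiers of the factors, 13 were above and 7 below 0 in Homo against WT. The split was 15 and 5 in Het against WT and 7 and 13 in Homo against Het. Of the 20, 0 passed, with 0, 2 and 0 at an unadjusted p under 0.05, beside the same shares of all genes. In that list Wwtr1 (TAZ) averaged 20.2 ± 0.994 CPM in Homo, 22.5 ± 1.66 CPM in Het and 18.3 ± 1.52 CPM in WT livers. Src averaged 2.41 ± 0.457, 2.40 ± 0.499 and 1.90 ± 0.512 CPM, and Cop1 44.7 ± 3.06, 41.6 ± 3.49 and 48.4 ± 5.87 CPM.

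The genes that hepatocytes are known by were also not called. Of 41 measured hepatocyte products, 18 were above and 23 below 0 in Homo against WT and 28 above and 13 below in Het against WT, with medians of -0.03 and 0.05. In Homo against Het 14 were above and 27 below, and 0 were called in any. Unadjusted p was under 0.05 for 0, 2 and 2 of the 41, beside 4.73%, 4.67% and 5.1% of all genes. Mttp, which loads lipoproteins with lipid, averaged 257 ± 17.1 CPM in Homo, 268 ± 28.2 CPM in Het and 285 ± 24.9 CPM in WT livers. Otc, a urea cycle enzyme, averaged 247 ± 11.8, 248 ± 17.0 and 264 ± 13.2 CPM, and Fga, a fibrinogen chain, 4104 ± 817, 4087 ± 809 and 3493 ± 665 CPM. Of 13 measured genes of fetal or dedifferentiated liver, 8 were above and 5 below 0 in Homo against WT. The split was 9 and 4 in Het against WT and 6 and 7 in Homo against Het. Of the 13, 0 passed, with 0, 0 and 2 at an unadjusted p under 0.05, beside the same shares of all genes. Afp, the fetal albumin relative, was low in all groups, at 1.28 ± 0.454 CPM in Homo, 1.05 ± 0.141 CPM in Het and 0.804 ± 0.38 CPM in WT livers. Gpc3 averaged 0.763 ± 0.295, 0.571 ± 0.317 and 0.421 ± 0.241 CPM, and Spp1, also a bile duct gene, 28.5 ± 19.8, 24.3 ± 3.70 and 22.6 ± 3.10 CPM.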

How the data were processed

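Trizol and an RNeasy kit were used for liver RNA and a NuGen Ovation mouse kit for the libraries, per the labels' protocols. The authors deposited estimated counts per gene, for which the submitters' processing notes name STAR, Salmon and the build GRCm39. The sources used here do not give versions, annotation release or use of strand. Columns were tied to mice by the sample descriptions.

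Estimated counts were rounded (6.36% to 8.59% of each library's values had a fractional part). Genes were filtered with edgeR 4.0.16 (minimum count 10, minimum total 15), scaled by TMM and fitted with its quasi-likelihood test on all 14 livers, with Benjamini-Hochberg adjustment over 16201 genes and a threshold of 0.05. The trend coded WT, Het and Homo as equal steps. No 2 libraries were identical, and each counted as 1 replicate. CPM values used TMM library sizes, and log2 CPM a prior count of 2. Single values were compared by exact two-sided permutation, and correlations used 100000 permutations. Levels per length used the exons of GENCODE M21 (GRCm38), which is not the authors' build, so only lengths, chromosomes and overlaps were taken from it. DESeq2 1.42.0, other filters and scalings, the replicate number as a block and leaving out each mouse were the alternatives. The scripts were tested on simulated data. Named genes were the 9 factors, the 2 genes nearest and the 1 most opposite to each, and the 3 of each pathway list that had the lowest p when Homo was set against WT. Members and lists were chosen with earlier results of these data known. Onecut2, Nr1i3, Ahsg, Tat and Dbp, the genes named for Homo against Het, the relations with the lymphocyte sum and the cut at 100 CPM of Cebpb were chosen after their values were seen.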

Additional observations from a re-analysis of the deposited data

Results flagged for a closer look

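In 27 groups of 4 or 6 livers (9 factors in 3 genotypes), the highest or lowest value was set against the others by Dixon's ratio, which chance exceeds in about 1 group in 20. It was exceeded in 2 groups. Foxa3 in the second Het liver, at 90.6 CPM, stood above the other 3 Het livers (gap over range 0.903, critical value 0.829). Cebpb in the first WT liver, at 50.2 CPM, stood below the other 5 WT livers (gap over range 0.769, critical value 0.625), and it is 1 of the 4 livers with low Cebpb.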

How the results depend on the processing

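The count of factors that differed by genotype was 0 under every alternative run, and the smallest adjusted p of a factor was 0.647. Genes called over the whole table moved more: DESeq2 called 61 in Homo against WT, 32 in Het against WT, 15 in Homo against Het and 54 for the trend, beside 36, 9, 5 and 30 in the edgeR fit. No filter gave 23 in Het against WT. A fit on 2 groups alone gave 2 in Homo against Het. With the replicate number as a block the counts were 19, 2 and 11 in Homo against WT, Homo against Het and the trend. Replicate numbers 5 and 6 occur only among WT livers, so under the block WT livers 5 and 6 do not enter the comparison of genotypes. The labels do not say that equal numbers pair the mice. Same-numbered mice had correlations of -0.09 to 0.15, 2 of 12 above 0.1, and 3 of 12 mice matched their own number best. These values cannot decide whether the mice were paired. Leaving out each mouse gave 23 to 40, 8 to 11, 4 to 7 and 19 to 33 calls.

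Of 675 refitted fold changes of the factors, 53 changed sign, none of them called and none with a log2 above 0.22 in size at first. With the replicate block, Homo against WT became 0.0163 for Hnf4a, 0.0993 for Foxa2, 0.00893 for Foxa3, -0.00251 for Cebpa and 0.44 for Onecut1. Het against WT became 0.0062 for Hnf4a and 0.0435 for Foxa3, and the trend 0.00812 for Hnf4a, 0.049 for Foxa2, 0.00445 for Foxa3 and -0.00138 for Cebpa. With library totals alone, Onecut1 was 0.0671 in Homo against WT, Nr5a2 -0.00666 in Het against WT and Foxa3 0.0188 in Homo against Het. Leaving out 1 mouse, Homo against WT ran from -0.67 to 0.32 for Onecut1, -0.24 to 0.0387 for Prox1, -0.15 to 0.0181 for Nr5a2, -0.11 to 0.00416 for Hnf4a and -0.0409 to 0.13 for Cebpa. Het against WT ran from -0.0908 to 0.30 for Foxa2, -0.19 to 0.025 for Foxa3, -0.0542 to 0.11 for Nr5a2 and -0.0695 to 0.018 for Cebpa. Homo against Het ran from -0.12 to 0.11 for Foxa3, -0.052 to 0.0708 for Hnf4a and -0.0145 to 0.16 for Cebpa. The trend ran from -0.24 to 0.18 for Onecut1, -0.27 to 0.0227 for Cebpb, -0.0722 to 0.0127 for Nr5a2 and -0.0211 to 0.0562 for Cebpa. The values with the replicate block leave WT livers 5 and 6 out of the comparison, and the cause of the other sign changes was not tested.

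Without the 2 livers farthest from the median of the first factor, Foxa1 with Foxa2 had r = 0.710 (adjusted permutation p = 0.105), Foxa1 with Onecut1 0.665 (0.107) and Foxa3 with Onecut1 0.73 (0.0845), and these no longer passed. Without the 2 farthest for the second factor, an alternative added after seeing the data, Prox1 with Onecut1 had -0.59 (0.244), Foxa1 with Onecut1 0.727 (0.0685) and Foxa3 with Onecut1 0.583 (0.244), which did not pass either. With 4 livers in a group, exact tests cannot go below 0.00476 (4 against 6) or 0.0286 (4 against 4), and the 95% intervals of Homo over WT ran from 0.395-fold to 2.49-fold for Onecut1 and from 0.476-fold to 1.48-fold for Cebpb.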

Other observations

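The 4 livers with low Cebpb carry the numbers 1, 2, 3 and 5 of 14 in the sample titles, and number 4, a WT liver, had 132.8 CPM. The titles do not say what the number stands for, and no batch or time of collection is given, so a part of order or time in this was not tested. The numbers were looked at after the values. Dbp, a clock output gene, stood at 99.8 to 134 CPM in those 4 livers and at 55.3 to 105 CPM in the other 10. Pim3 stood at 20.8 to 29.3 CPM against 43.5 to 94.8 CPM, and was picked by its r with Cebpb over all 14 livers.

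The breadth of co-variation differed between the factors. Over all tested genes, 2.72% reached r of 0.7 in size with Onecut1 and 2.69% with Foxa2, against 1.93% with Foxa3, 1.51% with Hnf4a, 1.46% with Foxa1, 0.815% with Cebpa, 0.611% with Prox1 and 0.531% with Nr5a2. Over all 14 livers the share for Cebpb was the largest, 3.21%, and there its values fall into separate sets. These shares are descriptions of 14 livers and carry no test.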
